A study of Homo sapiens with 26 samples.

Results

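The genes described here are the respiratory chain genes of both genomes, chosen by gene symbol alone as the protein-coding genes of the count table that encode structural subunits: names beginning MT-ND, MT-CO, MT-ATP or MT-CYB, the NDUF structural families without the NDUFAF assembly factors, the 4 SDH subunits, the UQCR family, CYC1, COX4 to COX8 and ATP5. This rule gave 104 of the 19815 protein-coding genes (of 58039 genes in all), 13 mitochondrial and 91 nuclear. All 13 mitochondrial and 82 of the nuclear members had enough counts to be tested. The 9 that did not reached at most 0.286 CPM (gene counts scaled to 1000000 per library): COX4I2, COX6A2, COX7A1, COX7B2, COX8C, the retrocopy ATP5L2, the read-through genes ATP5J2-PTCD1 and NDUFC2-KCTD14, and a duplicate entry of SDHD. The symbol rule also took in the retrocopies UQCRHL and ATP5EP2, which the table lists as protein-coding, and ATP5S, a coupling factor outside the core enzyme. Complexes were assigned by symbol alone, not by where a subunit is found. All NDUF genes, NDUFA4 and NDUFA4L2 among them, therefore count in complex I. UQCRHL counts in complex III, and ATP5EP2 and ATP5S in complex V.

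The respiratory chain consists of 4 membrane complexes that pass electrons from NADH and succinate to oxygen, and ATP synthase, counted here as complex V, uses the resulting proton gradient to make ATP. Complexes I, III, IV and V combine subunits encoded in the mitochondrial genome with subunits encoded in the nucleus, whereas complex II is entirely nuclear. The mitochondrial messages come from long transcripts of the 2 strands of a small circular genome, cut apart at transfer RNAs. The nuclear messages come from scattered single genes, so the 2 sets are made by different polymerases in different compartments.

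RNA sequencing was done on 26 libraries of HCT116, a human colon carcinoma cell line, grown in DMEM with serum, from which total RNA was isolated on columns and sequenced in paired ends. The 9 groups were unedited control cells, control cells with JQ1, 2 sublines each (C1 and C2) with CRISPR knockout of CDK8 (CDK8KO), of CDK19 (CDK19KO) and of both genes (DKO), and subline DKO-C1 with JQ1. Every group had 3 libraries except DKO-C1 with JQ1, which had 2. CDK8 and CDK19 are the paralogous kinases of the Mediator complex, and JQ1 blocks the BET bromodomain proteins. The labels give no edited site and no dose or time for JQ1, and they do not say whether replicates were separate cultures, so the p-values measure only the spread between libraries.

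Gene counts per library ran from 17700864 to 19093094. The medians of CDK8 counts were 44.3 and 46.5 CPM in the 2 CDK8KO sublines against 50.4 in control, those of CDK19 were 18.8 and 25.4 CPM in the CDK19KO sublines against 27.4, and CDK19 was at 33.1 and 39.7 CPM in the DKO sublines. Gene-level counts do not show whether an edit is present, so the group names rest on the labels. Of 10 markers of intestinal epithelium, EPCAM (239 to 413 CPM), KRT8, KRT18, CDH1 and CDX2 (13.7 to 25.9 CPM) were present in every library, KRT20 reached at most 5.9 CPM, and VIL1, CDX1, LGALS4 and CDH17 stayed under 1 CPM. All 6 leukocyte and all 4 endothelial markers stayed under 1 CPM in every library, as did 4 of 6 fibroblast and 5 of 6 muscle markers. Fold changes below are relative to the library's other genes (edgeR's TMM scaling). With scaling to the ERCC spike-in RNA instead, the median of all genes moved by -1.21 (CDK8KO), -1.65 (CDK19KO) and -0.90 (DKO) on the log2 scale against control, by 0.43 for CDK8KO against CDK19KO, by -0.37 for JQ1 in control cells and by -0.27 for JQ1 in DKO-C1. The labels name a spike-in only for the control and DKO samples although all libraries contain its counts, so whether equal amounts were added to each is not known.

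Before any comparison with DKO, the 8 DKO libraries have to be set apart, because the counts of processed copies of the members differed there. A processed pseudogene is a reverse-transcribed copy of a message, and its exons can be nearly identical to the parent's. Of the nuclear members, 44 had annotated pseudogenes, 150 in all. These were found by symbol and are of any kind, unprocessed duplicates such as SDHAP1 among them. Summed over these, the count was 20.3 to 24 CPM in the 8 libraries of DKO-C1, DKO-C2 and DKO-C1 with JQ1, and 96.0 to 135 CPM in the other 18. The groups did not overlap. The mitochondrial members had 392 annotated pseudogenes, nuclear insertions of mitochondrial DNA, and their summed counts did overlap, at 518 to 717 CPM in the DKO libraries and 504 to 1137 CPM in the rest. The genotype and any difference in how those 8 libraries were made, aligned or counted cannot be told apart.

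One such pair was UQCRH, the hinge subunit of complex III (chr1:46303631-46316776, plus strand, GENCODE release 29 on GRCh38), and its retrocopy UQCRHL (chr1:15807169-15809348, minus strand). The 2 coding sequences of 276 bases are printed whole to show how little separates them, with the 4 bases that differ in capitals:
UQCRH: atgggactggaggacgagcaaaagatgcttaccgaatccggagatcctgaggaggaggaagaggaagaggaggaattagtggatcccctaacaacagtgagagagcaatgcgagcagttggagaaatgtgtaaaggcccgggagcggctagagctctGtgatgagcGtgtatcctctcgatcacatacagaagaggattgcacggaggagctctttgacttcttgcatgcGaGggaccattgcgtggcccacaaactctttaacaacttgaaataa
UQCRHL: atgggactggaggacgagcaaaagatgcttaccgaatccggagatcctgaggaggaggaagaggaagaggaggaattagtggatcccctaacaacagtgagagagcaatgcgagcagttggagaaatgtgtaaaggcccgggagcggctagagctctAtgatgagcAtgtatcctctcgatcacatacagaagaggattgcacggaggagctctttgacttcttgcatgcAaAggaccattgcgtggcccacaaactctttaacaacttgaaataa
UQCRHL was counted at 51.6, 45.3 and 47.2 CPM in control and at 3.27 to 4.59 CPM in the 6 untreated DKO libraries, a log2 change of -3.55 (SE 0.07, adjusted p = 1.62e-32, edgeR's quasi-likelihood test). In the same libraries UQCRH went the other way, from 87.2, 89.3 and 86.9 CPM to between 101 and 111 CPM (log2 change 0.28, SE 0.05, adjusted p = 3.03e-06). The sum of the pair was 136 ± 2.59 CPM (SD, n = 3) in control and 111 ± 4.66 CPM (SD, n = 6) in DKO, lower by 0.30 on the log2 scale.

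COX6A1, the widely expressed isoform of a complex IV subunit (chr12:120438090-120440742, plus strand), and its processed pseudogene COX6A1P2 (chr6:37044860-37045189, plus strand) were another such pair. Their coding sequences of 330 bases differ at 4 positions, all in the first 120 bases, which are shown with the differing bases in capitals:
COX6A1: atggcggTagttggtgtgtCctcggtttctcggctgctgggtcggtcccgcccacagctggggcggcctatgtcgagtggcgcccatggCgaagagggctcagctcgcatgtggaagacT
COX6A1P2: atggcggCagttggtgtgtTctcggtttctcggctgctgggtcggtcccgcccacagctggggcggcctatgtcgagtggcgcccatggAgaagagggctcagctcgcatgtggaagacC
COX6A1P2 was counted at 39.8, 42.4 and 41.7 CPM in control and at 1.22 to 2.23 CPM in untreated DKO, with no overlap. COX6A1, at 27.4, 28.7 and 28.4 CPM in control and 29.3 to 40.6 CPM in untreated DKO, was called higher in DKO (log2 change 0.37, SE 0.06, adjusted p = 3.23e-06), but the change became -0.87 with the counts of its pseudogenes added. NDUFV2, a complex I subunit of the NADH-binding module, had few counts, with a mean of 1.34 CPM in control. NDUFV2P1, which matches 693 bases of its coding sequence at 98.27%, was counted there at 26.3, 27.8 and 27.0 CPM. In the untreated DKO libraries NDUFV2P1 was at 0.677 to 1.27 CPM, while the log2 change of NDUFV2 was -0.32 and was not called. The sum of this pair averaged 28.4 CPM in control and 1.93 CPM in untreated DKO. The lower count of NDUFV2P1 was thus not matched by a higher count of NDUFV2. Why NDUFV2 had few counts in both groups was not tested.

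NDUFB4P12, a copy of the complex I subunit gene NDUFB4, went from 3.69 to 4.24 CPM in control to at most 0.106 CPM in untreated DKO. SDHAP1, an unprocessed duplicate of SDHA that keeps introns, was at 9.43 to 11 CPM in control and 9.63 to 12 CPM in untreated DKO. So the processed copies named here were low in the 8 libraries, and this unprocessed one was not. ATP5L, subunit g of ATP synthase with 4 pseudogenes, was at 62.1, 59.7 and 61.3 CPM in control and 22.5 to 27.8 CPM in untreated DKO (log2 change -1.30, SE 0.06, adjusted p = 2.36e-21). Of its exon sequence, 19.1% of 50-base words also occur in transcripts of other genes, mainly AP001267.5, whose exons overlap those of ATP5L. Whether reads moved between these members and their copies or overlapping genes was not tested.

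**Figure D1:**
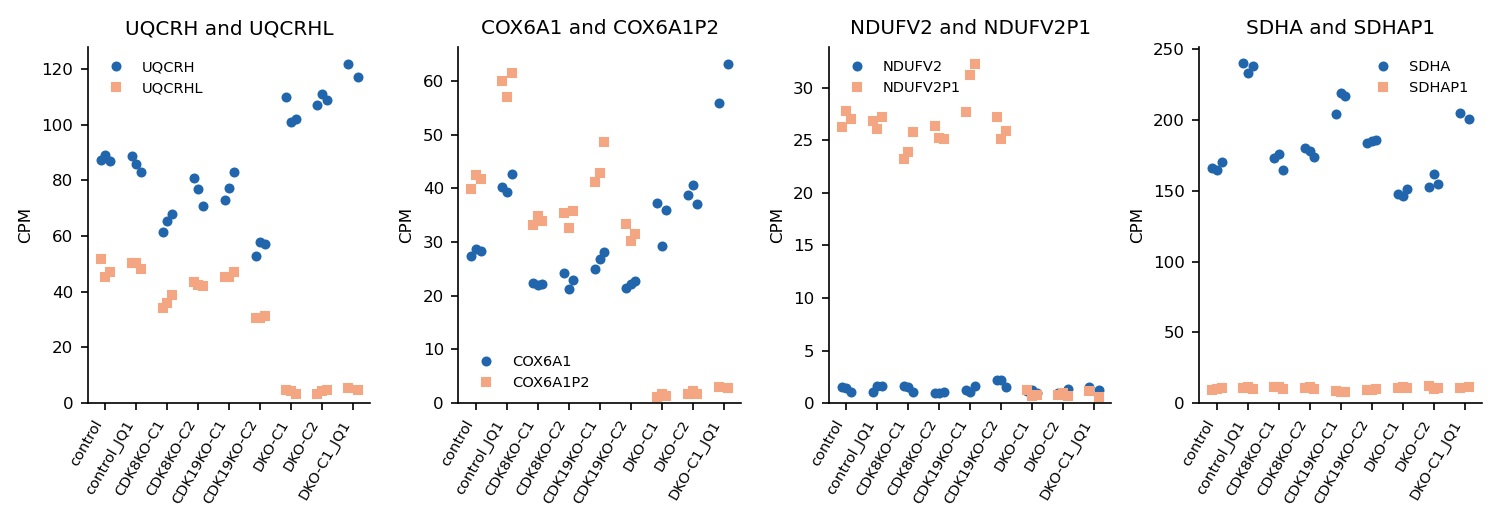
CPM (linear axis from 0) of 4 nuclear members (circles) and a copy of each (squares) in every library, by group. The 3 processed copies UQCRHL, COX6A1P2 and NDUFV2P1 drop to between 0.596 and 5.53 CPM in the DKO libraries while SDHAP1 stays level.

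The mitochondrial members have relatives of another kind. MT-ATP6, subunit a of ATP synthase (chrM:8527-9207, plus strand), and MTATP6P1 (chr1:633696-634376, plus strand) differ at 10 of 681 bases. The first 120 bases are shown to set this identity beside that of the nuclear pairs, with the 1 base that differs in capitals:
MT-ATP6: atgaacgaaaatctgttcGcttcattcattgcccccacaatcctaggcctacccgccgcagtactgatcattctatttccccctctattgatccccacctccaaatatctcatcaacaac
MTATP6P1: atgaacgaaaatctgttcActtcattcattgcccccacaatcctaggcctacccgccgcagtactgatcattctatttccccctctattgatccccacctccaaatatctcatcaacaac
MTATP6P1 was counted at 669, 527 and 548 CPM in control and at 380 to 498 CPM in untreated DKO, beside a control mean of 5450 CPM for MT-ATP6. Adding the pseudogene counts to the mitochondrial and nuclear sums moved the log2 ratio of those sums by less than the spread between replicates in all 7 comparisons made with it. In control these counts averaged 844 CPM (mitochondrial) and 113 CPM (nuclear), where the members took 5.28% and 0.717% of gene counts. Counts this small could move the ratio only a little, so the result cannot show whether reads moved between members and copies.

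Summed over the 13 genes, mitochondrial messages took 5.88%, 4.89% and 5.07% of gene counts in control. The share was 6.50% to 6.66% in CDK8KO-C1 and 5.28% to 6.21% in CDK8KO-C2, 3.39% to 4.40% in CDK19KO-C1 and 4.36% to 4.70% in CDK19KO-C2, and 3.91% to 4.89% in the 6 untreated DKO libraries. CDK8KO-C1 thus lay above every control library and both CDK19KO sublines below, while CDK8KO-C2 overlapped control. The 91 nuclear members together took 0.709% to 0.721% in control, 0.609% to 0.674% in CDK8KO, 0.762% to 0.860% in CDK19KO-C1 and 0.608% to 0.626% in CDK19KO-C2. Per kilobase of exon, the tested mitochondrial members averaged from 1270 CPM (MT-ND6) to 10200 CPM (MT-CO2) over the libraries, and ATP5B, the catalytic beta subunit of ATP synthase and the most abundant nuclear member on that scale, averaged 362 CPM.

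The ratio of the 2 sums, which no scaling of a library changes, was 8.15, 6.90 and 7.04 in control. It was 10.9, 10.7 and 10.5 in CDK8KO-C1, 7.84 to 9.86 in CDK8KO-C2, 3.95 to 5.78 in CDK19KO-C1 and 7.14 to 7.51 in CDK19KO-C2. Neither CDK8KO nor CDK19KO had sublines that overlapped each other, and in each genotype the C2 subline overlapped control while C1 did not. DKO-C1 (6.94 to 8.14) and DKO-C2 (6.49 to 7.51) overlapped control; both sums were lower there. With JQ1 the ratio was 9.45, 9.26 and 6.84 in control cells and 6.70 and 7.81 in DKO-C1, each overlapping its untreated group.

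**Figure D2:**
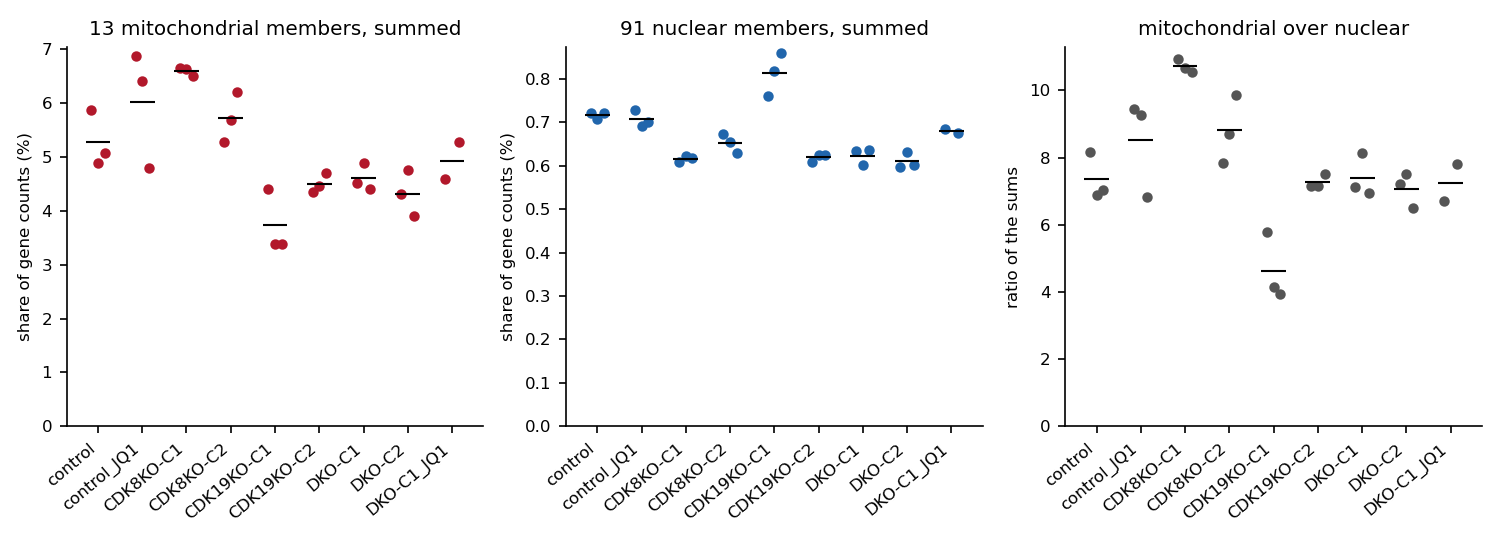
Share of gene counts (percent, axes from 0) of the 13 mitochondrial and the 91 nuclear members, and the ratio of the sums, in each of 26 libraries by group; bars are group means. CDK8KO-C1 has the highest ratio (10.5 to 10.9) and CDK19KO-C1 the lowest (3.95 to 5.78).

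In CDK8KO against control, of 13 mitochondrial members 7 rose and 0 fell (median log2 change 0.20), and of 82 nuclear members 0 rose and 53 fell (median -0.23), against 40.5% of all 17198 tested genes called in either direction (19.5% higher, 21% lower; all-gene median -0.02); with ERCC scaling 13 of 13 mitochondrial and 81 of 82 nuclear members were lower. With TMM scaling the 7 were MT-ND4 (0.40), MT-ND4L (0.35), MT-CO1 (0.29), MT-CO3 (0.28), MT-CYB (0.23), MT-ATP6 (0.22) and MT-CO2 (0.19), and with ERCC scaling all 7 were lower. MT-ND2, at -0.15, was the lowest and was not called. Taken by subline, 9 mitochondrial members rose and 0 fell in CDK8KO-C1 beside 1 and 55 nuclear ones (39.2% of all genes called), and 1 rose and 0 fell in CDK8KO-C2 beside 0 and 45 (34%). The 7 calls became 3 without control replicate 2 and 4 without control replicate 3 or CDK8KO-C2 replicate 3.

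With complexes assigned by symbol, the nuclear decrease in CDK8KO ran through every complex. In complex I 21 of 39 members fell, 3 of 4 in complex II, 7 of 10 in complex III, 10 of 12 in complex IV and 12 of 17 in complex V. NDUFB3, a small subunit of the membrane arm of complex I (chromosome 2), was at 34.3, 34.1 and 32.6 CPM in control, 20.4, 18.9 and 22.4 in CDK8KO-C1 and 21.6, 22.2 and 21.3 in CDK8KO-C2. All 6 knockout libraries were below all 3 controls (log2 change -0.67, SE 0.06, adjusted p = 5.93e-12, edgeR's quasi-likelihood test). FAM126B overlaps 19.8% of its exon bases on the opposite strand, and the strand setting of the counting is not given. COX7B, an accessory subunit of complex IV, was at 68.7, 70.5 and 69.4 CPM in control and 43.5 to 53.9 CPM in the 6 CDK8KO libraries, with no overlap (log2 change -0.53, SE 0.05, adjusted p = 6.18e-10). COX7A2L, a COX7A relative that takes part in joining complexes III and IV, fell by 0.45 on the log2 scale and NDUFA5, a subunit of the peripheral arm of complex I, fell by 0.44, both without overlap. Among succinate dehydrogenase genes SDHB (-0.14), SDHC (-0.19) and SDHD (-0.24) fell, and SDHA, the flavoprotein that oxidises succinate, had a log2 change of 0.06 and was not called.

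In CDK19KO as the mean of its sublines, of the mitochondrial members 0 rose and 11 fell (median -0.39), and of the nuclear members 8 rose and 43 fell (median -0.17), against 43% of all genes called (21% higher, 22% lower); with ERCC scaling 13 of 13 and 82 of 82 were lower. The nuclear median was 0.03 in CDK19KO-C1 and -0.33 in CDK19KO-C2. MT-ND2 (-0.81), MT-ND6 (-0.72), MT-ND5 (-0.65) and MT-ATP8 (-0.54) fell most, whereas MT-CO2 (-0.13) and MT-CYB (-0.20) were not called. MT-ND2, a core membrane subunit of complex I, was at 6180, 5380 and 5431 CPM in control, 3517, 2664 and 2548 in CDK19KO-C1 and 3379, 3563 and 3826 in CDK19KO-C2. No CDK19KO library came near a control (SE 0.08, adjusted p = 3.05e-10).

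The 8 nuclear members that rose in CDK19KO, all lower with ERCC scaling, were UQCRC1, a core protein of complex III (0.28), ATP5A1, the alpha subunit of ATP synthase (0.27), SDHA (0.25), NDUFA10 (0.16), UQCRC2 (0.15), CYC1 (0.14), ATP5B (0.12) and COX6B2 (0.77; 0.329 to 0.695 CPM in control and 0.608 to 1.30 CPM in CDK19KO). In CDK19KO-C2 alone only UQCRC1 (0.20), SDHA (0.15) and COX6B2 (1.10) of these 8 were called, while ATP5A1 (0.07), NDUFA10 (-0.01), UQCRC2 (-0.03), CYC1 (-0.13) and ATP5B (-0.01) were not. Of the members that fell, the small subunits COX7B (-0.67), UQCRH (-0.41), NDUFB3 (-0.39) and COX5B (-0.38) did so most. COX7B was at 46.4 to 57.8 CPM in CDK19KO-C1 and 34.4 to 38.9 in CDK19KO-C2, below all controls in both (SE 0.05, adjusted p = 1.56e-12). Against control, CDK19KO-C1 alone had 0 mitochondrial members higher and 11 lower and 23 nuclear members higher and 14 lower (46.1% of all genes called), and CDK19KO-C2 had 0 and 6, and 4 and 55 (42.4%). COX5B fell in CDK19KO-C2 (50.8 to 55.5 CPM against 85.0 to 95.8 in control), but CDK19KO-C1, at 79.5 to 99.2 CPM, overlapped control. SDHC and SDHD fell (-0.29 and -0.28) and SDHB (-0.04) was not called. NDUFA4L2, a relative of NDUFA4 with low counts, was at 1.26, 0.986 and 0.909 CPM in control and at 0.0539 to 0.334 CPM in the 6 CDK19KO libraries (log2 change -2.44).

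The 2 CDK19KO sublines also differed from each other. Compared with CDK19KO-C2, CDK19KO-C1 had 68 of 82 nuclear members higher and 1, NDUFV2, lower (median 0.36) and 0 of 13 mitochondrial members higher and 11 lower (median -0.30), against 48% of all genes called (23.8% higher, 24.2% lower); with ERCC scaling 3 nuclear members were higher and 3 lower, and 11 mitochondrial members were lower. The nuclear rise held in each complex: 27 of 39 members of complex I, 4 of 4 of complex II, 10 of 10 of complex III, 11 of 12 of complex IV and 16 of 17 of complex V. COX5B (log2 difference 0.74) and NDUFS5 (0.67), an accessory subunit of complex I, differed most among members above 5 CPM in that direction, together with ATP5I (0.67). NDUFS5 was at 106, 113 and 133 CPM in CDK19KO-C1 and 70.7, 73.2 and 76.6 in CDK19KO-C2.

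Among the mitochondrial members MT-ND6 (-0.74) and MT-ND5 (-0.69) differed most between these sublines. MT-ND6, the only protein-coding gene on the light strand, was at 442, 316 and 286 CPM in CDK19KO-C1, 542, 535 and 666 in CDK19KO-C2 and 832, 679 and 702 in control. The 3 groups did not overlap. Of the 2 sublines, CDK19KO-C1 was the farther from control for MT-ND6 and MT-ND5, while for nuclear COX7B and COX5B it was CDK19KO-C2. The count of 11 mitochondrial calls between the sublines became 5 without CDK19KO-C1 replicate 2 or replicate 3 and 6 without CDK19KO-C2 replicate 3, and was 5 with DESeq2's Wald test.

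**Figure D3:**
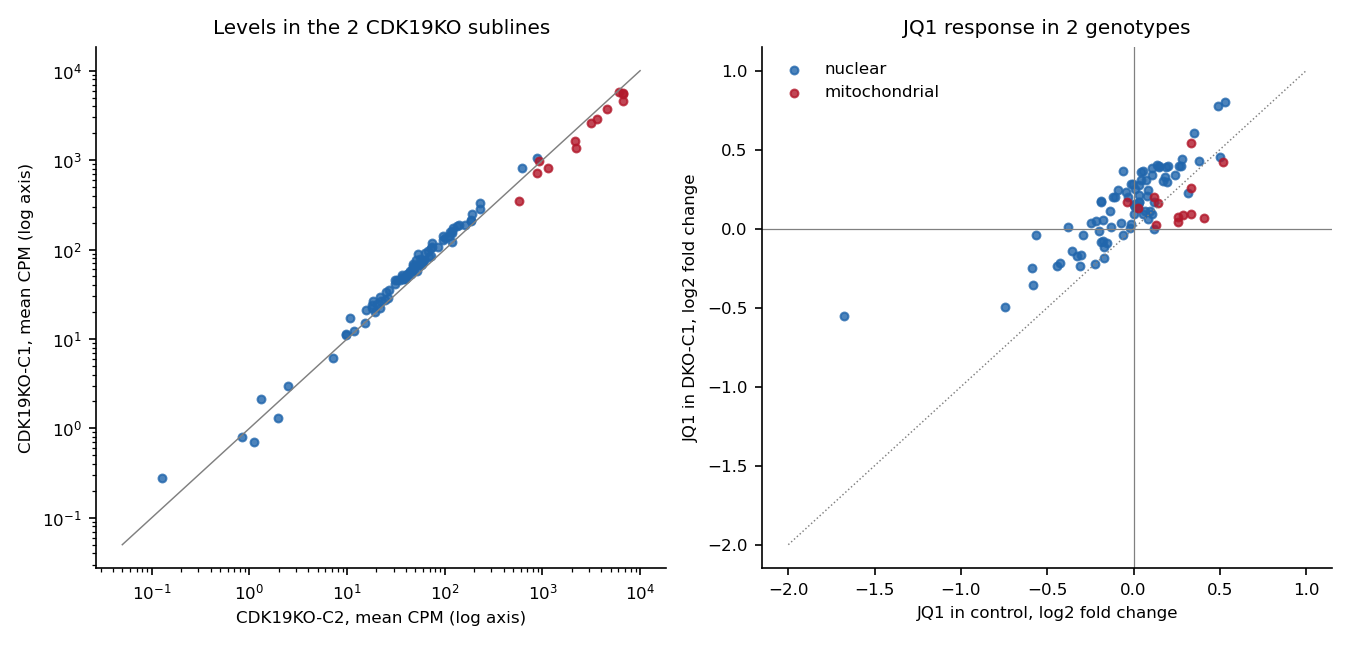
Left, mean CPM of the 95 tested members in CDK19KO-C1 against CDK19KO-C2 (log axes, line of equality; 3 libraries each). Right, log2 fold change with JQ1 in control cells and in DKO-C1 (dotted line of equality); mitochondrial members are red and nuclear ones blue, and in the left panel most nuclear members lie above the line and 12 of 13 mitochondrial ones below it.

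In the direct comparison of CDK8KO with CDK19KO, all 13 mitochondrial members were higher in CDK8KO (median 0.62), also with ERCC scaling, while 6 nuclear members were higher and 31 lower (median -0.10), against 47.1% of all genes called (23.6% higher, 23.4% lower); with ERCC scaling 65 nuclear members were higher and 0 lower. MT-ND5 and MT-ND6 (0.80 each), MT-ND4 and MT-ND4L (0.78 each) differed most and MT-ND3 (0.14) least. MT-ND4 was at 7840 to 10920 CPM in the 6 CDK8KO libraries and 4067 to 7152 CPM in the 6 CDK19KO libraries, with no overlap. Among nuclear members ATP5S (0.45), NDUFA6 (0.20), COX7B (0.15) and SDHC (0.10) were higher, and NDUFS7, a core iron-sulfur subunit of complex I (-0.35), NDUFB10 (-0.34), ATP5A1 (-0.32) and ATP5G3 (-0.31) were lower in CDK8KO. Of these, only ATP5S and ATP5A1 did not overlap between the 6 libraries of each genotype. The nuclear members averaged 0.616% and 0.652% of gene counts in CDK8KO-C1 and CDK8KO-C2. The mean was 0.813% in CDK19KO-C1 but 0.620% in CDK19KO-C2, within the range of the CDK8KO sublines. The 31 nuclear members called lower were not tested against each CDK19KO subline alone, so a subline difference cannot be told apart from genotype.

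In DKO, 0 mitochondrial members rose and 8 fell (median -0.30), and 4 nuclear members rose and 53 fell (median -0.22), against 61.6% of all genes called (29.5% higher, 32.1% lower); with ERCC scaling 13 of 13 and 82 of 82 were lower. Of the 17 tested nuclear members with little sequence in other genes and no pseudogene, 1 rose and 11 fell (median -0.21). MT-ND2 and MT-ND1, the first 2 protein-coding genes after the ribosomal RNAs on the heavy-strand transcript, changed most. MT-ND2 was at 3182, 3299 and 3185 CPM in DKO-C1 and 2676, 3035 and 2364 in DKO-C2, all below the control range of 5380 to 6180 (log2 change -0.94, SE 0.08, adjusted p = 9.3e-13). MT-ND1 went from 4100, 3495 and 3655 CPM to between 2055 and 2895 CPM (log2 change -0.57), also without overlap. MT-CO1 (-0.08), MT-CO2 (0.09), MT-ND4 (-0.09), MT-ND4L (-0.20) and MT-CYB (-0.09) were not called.

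The proportion between the counts of mitochondrial messages therefore shifted, whatever the scaling. MT-ND2 over MT-CO2 was 0.855, 0.902 and 0.868 in control, 0.472 to 0.504 in DKO-C1 and 0.363 to 0.388 in DKO-C2. It was 0.466 to 0.558 in CDK19KO-C1, 0.570 to 0.618 in CDK19KO-C2, 0.626 to 0.642 in CDK8KO-C1, 0.737 to 0.774 in CDK8KO-C2 and 0.641 to 0.705 in control cells with JQ1. Every other group lay below control, and the 2 sublines of each genotype did not overlap each other. MT-ND2 differs at 17 of 1042 bases from its annotated pseudogene MTND2P28. That copy was at 190, 175 and 177 CPM in control, 72.8 to 105 in untreated DKO and 84.9 to 117 in CDK19KO. The log2 ratio of the DKO mean to the control mean was -0.94 for MT-ND2 with and without these counts. Whether reads moved between MT-ND2 or MT-CO2 and their copies was not tested. The mitochondrial ribosomal RNAs, no members but cut from the same transcripts, were also lower in DKO: MT-RNR1 fell by 2.07 and MT-RNR2 fell by 1.43 on the log2 scale. Their sum was 6194 to 8169 CPM in untreated DKO against 19826 to 23304 in control. Both were also called lower in CDK19KO (-0.457 and -0.402) and with JQ1 in control cells (-0.395 and -0.378). Neither was called in CDK8KO, and with JQ1 in DKO-C1 MT-RNR1 rose (0.202) while MT-RNR2 (0.0191) was not called. The labels do not say whether ribosomal RNA was removed or poly(A) RNA selected, and a part of either step in these values was not tested.

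**Figure D4:**
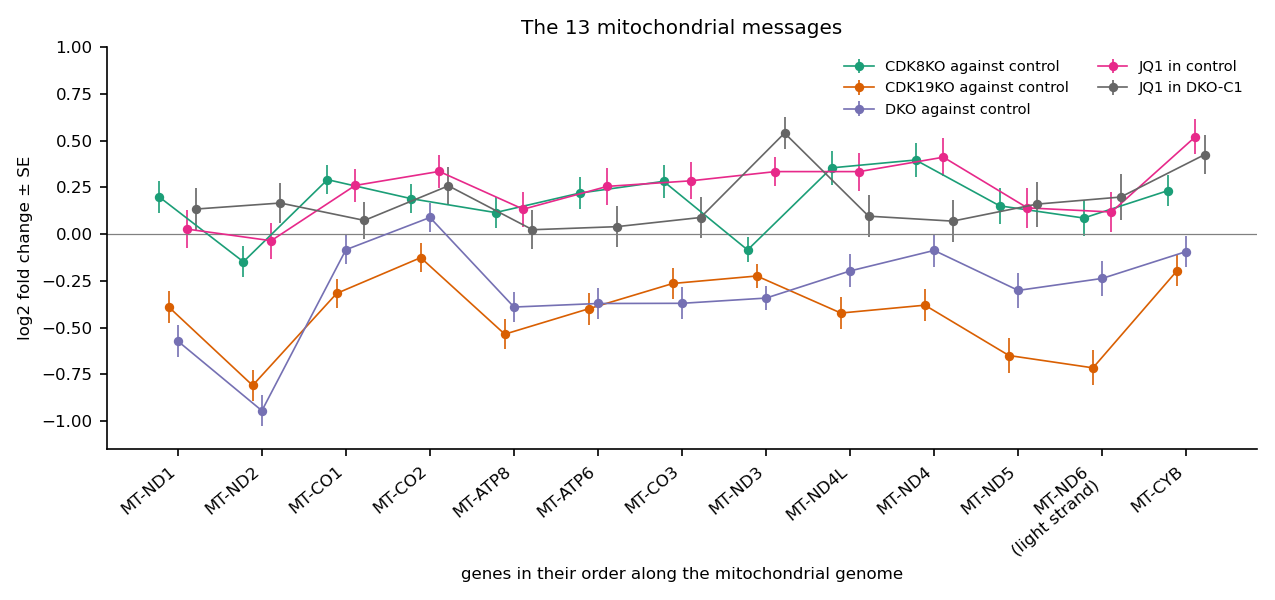
Log2 fold change ± SE (edgeR's quasi-likelihood fit) of the 13 mitochondrial messages in genome order for 5 comparisons. In DKO and CDK19KO, MT-ND2 is the lowest point (-0.94 and -0.81) and MT-CO2 the highest (0.09 and -0.13); with ERCC scaling all 13 genes are lower in each of the 3 knockouts.

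ATP5D, the delta subunit of ATP synthase, which has no annotated pseudogene, was at 103, 111 and 120 CPM in control, 69.3, 69.6 and 72.3 in DKO-C1 and 66.8, 75.6 and 71.4 in DKO-C2. No DKO library overlapped control (log2 change -0.66, SE 0.06, adjusted p = 1.97e-12). NDUFB10, a membrane-arm subunit of complex I with 2 pseudogenes, was at 134, 127 and 125 CPM in control and 76.7 to 88.5 CPM in untreated DKO (log2 change -0.64, SE 0.05, adjusted p = 1.63e-14). Of the 4 that rose, COX6A1, UQCRH and NDUFB4 (0.31, 12 pseudogenes) have processed copies, and UQCRC1, which has none, rose by 0.12 (adjusted p = 0.0207).

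In complex II, SDHA (-0.13), SDHB (-0.19) and SDHD (-0.47) fell in DKO and SDHC (0.05) was not called. SDHA, SDHC and SDHD have 3 annotated pseudogenes each and SDHB has none. SDHD shares 28.7% of its words with other transcripts, mainly AP002884.3, and 11.2% of its exon bases overlap another gene on the same strand. SDHA shares 16.2%, mainly with SDHAP3. Whether this bears on their changes was not tested. COX4I1, the main isoform of the largest nuclear subunit of complex IV, was at 235, 251 and 251 CPM in control, 204 to 226 in DKO-C1 and 144 to 155 in DKO-C2. Against control, DKO-C1 alone had 0 mitochondrial members higher and 6 lower and 3 nuclear members higher and 52 lower (55.9% of all genes called), and DKO-C2 had 0 and 9, and 7 and 44 (58.9%). For DKO-C1 against DKO-C2, 3 nuclear members were higher (COX4I1 0.53, NDUFA5 0.26, NDUFA10 0.13) and 3 lower (NDUFA3 -0.27, ATP5G2 -0.24, ATP5J2 -0.24), against 9.42% of all genes called (3.67% higher, 5.75% lower), and no mitochondrial member was called by edgeR's quasi-likelihood test (3 at an unadjusted p under 0.05; 0 by DESeq2's Wald test), but 9 were without the filter on low counts. CDK8KO-C1 against CDK8KO-C2 gave 5 mitochondrial members higher (MT-ND4, MT-CYB, MT-CO1, MT-CO2 and MT-ATP8, by 0.27 to 0.33) and 0 lower, and 1 nuclear member higher (NDUFA6, 0.33) and 12 lower, against 21.1% of all genes called (11.5% higher, 9.63% lower), and none of either set with ERCC scaling. Those 5 mitochondrial calls became 1 without CDK8KO-C1 replicate 1 or 2 or CDK8KO-C2 replicate 2, 0 without CDK8KO-C2 replicate 1 and 0 with DESeq2's Wald test.

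**Figure D5:**
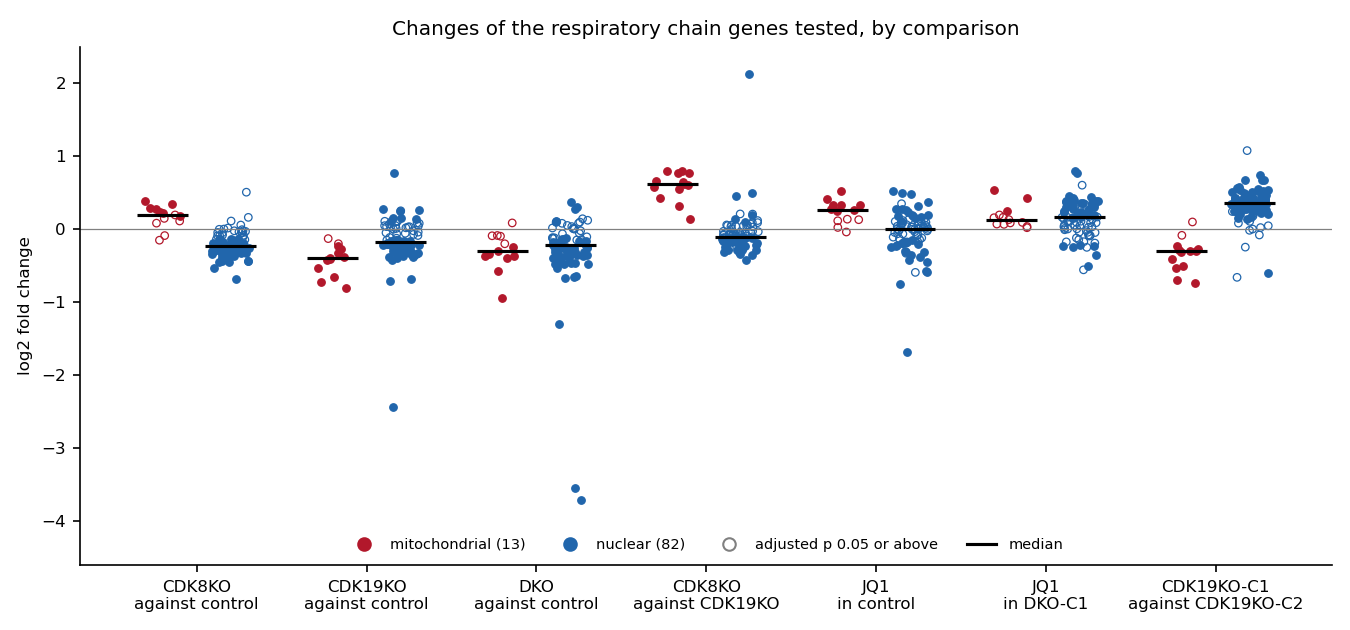
Log2 fold change of the 13 mitochondrial (red) and 82 nuclear (blue) members tested, for 7 comparisons with TMM scaling; filled points had an adjusted p under 0.05 and black bars are medians. The medians of the 2 sets have opposite signs in CDK8KO against control (0.20 and -0.23), CDK8KO against CDK19KO (0.62 and -0.10) and CDK19KO-C1 against CDK19KO-C2 (-0.30 and 0.36); with ERCC scaling both sets are lower in CDK8KO against control and both higher in CDK8KO against CDK19KO.

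With JQ1 in control cells 16 nuclear members rose and 19 fell (median 0.00) and 8 of 13 mitochondrial members rose with 0 falling (median 0.26), against 56% of all genes called (27% higher, 29.1% lower); with ERCC scaling 0 nuclear members rose and 43 fell, and 1 mitochondrial member fell. In DKO-C1 35 nuclear members rose and 6 fell (median 0.17) and 3 mitochondrial members rose (median 0.13), against 50.3% of all genes (24.9% higher, 25.4% lower); with ERCC scaling 2 nuclear members rose and 7 fell. Both groups of the second comparison are DKO libraries, and their summed counts of nuclear-member pseudogenes were 21.3 to 24 CPM without and 22.9 to 23.2 CPM with JQ1.

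Of the 12 nuclear members of complex IV tested, 4 rose (33.3%) and 0 fell in control cells. That share is near the 27% of all genes called higher there, and the median was 0.005. In DKO-C1 11 rose (91.7%) and 0 fell, against 24.9% of all genes called higher, and the median was 0.28. With ERCC scaling no nuclear member of any complex rose in control cells. COX6A1 was at 27.4, 28.7 and 28.4 CPM in control and 40.2, 39.3 and 42.6 with JQ1, and in DKO-C1 it went from 37.3, 29.3 and 35.9 to 55.9 and 63.2 CPM. No library overlapped in either genotype, and the log2 changes were 0.53 (SE 0.07, adjusted p = 5.79e-08) and 0.80 (SE 0.07, adjusted p = 1.46e-11). Its pseudogene COX6A1P2 was higher with JQ1 as well, at 57.0 to 61.4 CPM in control cells. NDUFA2, a small peripheral-arm subunit of complex I, rose by 0.49 and by 0.78, from 19.3 to 20.6 CPM to 26.1 to 31.5 CPM in control cells and from 18 to 19.1 CPM to 30.2 and 33.4 CPM in DKO-C1. SDHA rose from 166, 165 and 170 CPM to 240, 233 and 238 (log2 change 0.50, SE 0.04, adjusted p = 6.72e-13), and in DKO-C1 from 146 to 151 CPM to 205 and 201 (0.45, SE 0.05, adjusted p = 1.84e-10).

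In control cells SDHB (-0.02), SDHC (0.08) and SDHD (-0.07) were not called; in DKO-C1 SDHC rose as well (0.25). ATP5A1 rose in both genotypes (0.38 and 0.43), and ATP5H, a stalk subunit of ATP synthase, by 0.28 and 0.44. Of the 19 that fell in control cells, 12 have complex I symbols, NDUFA4L2 among them, out of 39 tested (30.8%). Another 5 have complex V symbols, out of 17 tested (29.4%), and 2 complex III symbols, out of 10 (20%). Of all genes 29.1% were called lower, so the shares in complexes I and V are near that of all genes. NDUFC1, a small membrane-arm subunit of complex I, was at 53.1, 51.4 and 53.1 CPM in control and 33.0, 30.5 and 30.7 with JQ1, and at 44.5, 40.5 and 45.9 CPM in DKO-C1 and 31.3 and 30.6 with JQ1. The groups did not overlap in either genotype (log2 changes -0.74, SE 0.06, adjusted p = 2.52e-13, and -0.50, SE 0.07, adjusted p = 9.17e-08). MGARP overlaps 18.6% of the exon bases of NDUFC1 on the same strand.

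The 3 genes for the membrane ring subunit c of ATP synthase, which differ in their targeting peptides but give the same mature protein, did not move together. ATP5G1 was at 89.6, 90.2 and 93.9 CPM in control and 67.4, 56.4 and 59.3 with JQ1 (log2 change -0.58, SE 0.07, adjusted p = 6.24e-09), and ATP5G2 at 83.9 to 88.7 and 59.4 to 67.7 CPM (-0.45, SE 0.08, adjusted p = 4.37e-06). ATP5G3 was at 148, 142 and 145 CPM in control and 174, 152 and 158 with JQ1 (0.15). In DKO-C1 the order of the changes was the same, with ATP5G1 at -0.36, ATP5G2 at -0.23 and ATP5G3 at 0.40, all 3 called. ATP5G3 has no annotated pseudogene, ATP5G1 has 7 and ATP5G2 has 3. NDUFB8, whose log2 change in control cells was -0.56, shares 56.5% of its words with other transcripts, mainly AL133352.1, which overlaps it on the same strand, so its counts are uncertain.

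Over the 82 nuclear members the changes in the 2 genotypes, measured in separate libraries, had a Pearson r of 0.85 and a Spearman rho of 0.84, given as a description across genes, which are not independent replicates. Of them, 16 were called higher in both, 6 lower in both and 0 in opposite directions. The 6 were NDUFC1, ATP5G1, ATP5G2, NDUFA5, NDUFB10 and NDUFB4. Of all genes, 27% were called higher and 29.1% lower in control cells, and 24.9% and 25.4% in DKO-C1. The share of all genes called in both genotypes and the correlation over all genes were not computed. Whether the members agree between genotypes more than other genes was therefore not tested. For the 13 mitochondrial members r was 0.36; MT-CYB (0.52 and 0.42), MT-CO2 (0.34 and 0.26) and MT-ND3 (0.33 and 0.54) were called higher in both. MT-CYB, the only mitochondrial subunit of complex III, was at 2331, 1996 and 2091 CPM in control and 3604, 3152 and 2455 with JQ1, and at 1905, 2071 and 1943 CPM in DKO-C1 and 2456 and 2842 with JQ1. The 8 mitochondrial calls in control cells became 5 without control replicate 2 or 3 and 3 without JQ1 replicate 1, and the JQ1 library labelled replicate 3 had the lowest mitochondrial share of its group (4.80% against 6.41% and 6.87%).

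The difference between the JQ1 responses, tested as an interaction, was called for 6 nuclear members, all higher in DKO-C1, among them NDUFB8 (0.53), COX7C (0.33), ATP5D (0.32), NDUFB5 (0.31) and COX7B (0.31), against 8.59% of all genes called (3.9% higher, 4.7% lower). ATP5D was at 103, 111 and 120 CPM in control and 108, 101 and 99.1 with JQ1, which overlap, and at 69.3, 69.6 and 72.3 CPM in DKO-C1 and 78.0 and 83.8 with JQ1, which do not. None was called for the mitochondrial members by edgeR's quasi-likelihood test (1 at an unadjusted p under 0.05; 0 by DESeq2's Wald test), but 5 were without the filter on low counts and 1 with only the libraries compared, with the replicate number as a block or without control JQ1 replicate 3. The 6 calls became 0 without either JQ1 library of DKO-C1, 2 without DKO-C1 replicate 2 and 3 without control JQ1 replicate 2, and 10, 13 and 17 without DKO-C1 replicate 1, control JQ1 replicate 1 and DKO-C2 replicate b, and 0 were called with ERCC scaling.

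Promoters of the nuclear members were searched because many of these genes changed together and are classic targets of NRF1, of ETS-family factors and of YY1. RefSeq promoters (GRCh38.p14, 250 bases before to 50 after the start) were found for 68 of the 91. The palindromic NRF1 motif, spelled by the first run of capitals in the SDHD sequence printed here, occurred on either strand in 4 of the 68 (5.88%) and in 1.36% of all 27305 promoters, CCGGAAG (ETS) in 19 (27.9%) and 10.7%, and AAGATGGC (YY1) in 11 (16.2%) and 3.03%. These are matches of letters, not sites. Of the 16 members called higher with JQ1 in both genotypes, 14 had a promoter, of which 3 held the ETS letters, 1 the NRF1 and 1 the YY1 letters; of the 6 called lower in both, all had a promoter, of which 0, 1 and 0 did. The 150 bases before the start are shown for SDHD (chr11:112086723-112086872, plus strand), which holds 2 of the motifs, and for a member that rose and a member that fell with JQ1, COX6A1 (chr12:120437963-120438112, plus strand) and NDUFC1 (chr4:139302552-139302701, minus strand), 5′ to 3′ with motif letters in capitals:
SDHD: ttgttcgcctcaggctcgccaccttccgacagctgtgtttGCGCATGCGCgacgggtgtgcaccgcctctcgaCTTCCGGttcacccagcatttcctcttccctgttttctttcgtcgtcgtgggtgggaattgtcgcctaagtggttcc
COX6A1: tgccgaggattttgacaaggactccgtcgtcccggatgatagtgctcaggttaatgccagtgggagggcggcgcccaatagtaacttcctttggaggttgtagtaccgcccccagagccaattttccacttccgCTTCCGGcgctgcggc
NDUFC1: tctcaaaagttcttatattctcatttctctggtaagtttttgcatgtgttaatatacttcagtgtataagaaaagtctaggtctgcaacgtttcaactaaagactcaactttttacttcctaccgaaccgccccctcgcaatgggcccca
SDHD has the NRF1 and ETS letters, COX6A1 the ETS letters in reverse complement 16 bases before its start, and NDUFC1 none of the 3 motifs.

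Genes that serve the chain without being part of it gave the following counts. The 79 mitochondrial ribosomal proteins, which translate the 13 mitochondrial messages, had 1 member up and 45 down in CDK8KO, 15 and 24 in CDK19KO, 4 and 56 in DKO, 8 and 38 with JQ1 in control cells and 10 and 22 with JQ1 in DKO-C1 (medians -0.18, -0.05, -0.29, -0.14 and -0.04). Of all genes, 19.5% were called higher and 21% lower in CDK8KO, 21% and 22% in CDK19KO, 29.5% and 32.1% in DKO, 27% and 29.1% with JQ1 in control cells and 24.9% and 25.4% with JQ1 in DKO-C1, the background for all counts of this paragraph. Of 47 assembly factors tested, 2 rose and 25 fell in CDK8KO, 2 and 18 in CDK19KO, and 3 and 31 in DKO, with COX15, a heme A synthase needed for complex IV (-1.04), the largest change in DKO. With JQ1, 7 of them rose and 22 fell in control cells (median -0.13), and 13 rose and 7 fell in DKO-C1 (median -0.02). COA7 (-1.19 and -1.25) and COA6 (-1.07 and -0.86), both assembly factors of complex IV, fell with JQ1 in control cells and DKO-C1. Of 13 citrate cycle genes 8 rose and 2 fell with JQ1 in control cells and 7 rose and 1 fell in DKO-C1 (medians 0.20 and 0.22). In the knockouts 0 rose and 6 fell (CDK8KO), 3 and 1 (CDK19KO), and 1 and 7 (DKO). Of 15 genes for mitochondrial DNA transcription and replication 2 rose and 10 fell in DKO (median -0.40), 1 and 8 in CDK8KO (-0.15) and 3 and 8 in CDK19KO (-0.17). Of 17 for mitochondrial RNA processing 0 rose and 14 fell in DKO (median -0.28), 0 and 9 in CDK8KO (-0.14) and 3 and 4 in CDK19KO (-0.05). The all-gene medians of these comparisons lay between -0.02 and 0.00, and with ERCC scaling they shift as given above.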

How the data were processed

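Per the submitters' processing notes, reads were aligned with STAR 2.5.2 to build hg38 and the authors deposited raw counts per gene from featureCounts (Subread 1.6.3). No source used here gives the annotation release or the strand setting. Columns of the count table were matched to samples by name. The 3 DKO libraries of a column series named for another clone number were placed in DKO-C2, the only DKO group without columns, and carry the letters a, b and c, and 1 library of DKO-C1 with JQ1 carries the letter a, because their numbers did not match a label. Members, gene lists and comparisons were chosen with earlier results of these data known.

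Genes passing edgeR's filterByExpr (minimum count 10, minimum total 15) were tested, 17198 in all. All 26 libraries in 9 groups entered 1 fit with TMM factors and edgeR's quasi-likelihood test (edgeR 4.0.16, R 4.3.3), with Benjamini-Hochberg adjustment over all tested genes and a threshold of 0.05. A genotype was the mean of its 2 sublines. SE is the fold change divided by the root of the test statistic. CPM of single genes use TMM-scaled library sizes, and shares, ratios and the summed CPM of pseudogenes and of ribosomal RNA use unscaled library totals. The single knockouts and the other samples differ in whether the labels name a spike-in, and a batch along that line cannot be told apart from genotype.

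Named members were all 13 mitochondrial ones, the 4 largest called rises and falls per comparison (above 5 CPM in either group), the SDH genes and isoform groups. The values of 1 member that this rule would name are not reported here. Annotation was GENCODE release 29. Exon sequence was cut into 50-base words every 8 bases and searched in transcripts of other genes. Coding sequences and copies were aligned with match 2 and mismatch -3. The alternatives tried were DESeq2's size factors and Wald test (DESeq2 1.42.0), ERCC factors, no filter, library sizes without mitochondrial genes, only the libraries compared, single sublines, each library left out, and a replicate block. Counts with pseudogenes added, members with little shared sequence and the numbered libraries without the block were chosen after seeing the data. The fit was tested on simulated data.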

Additional observations from a re-analysis of the deposited data

Results flagged for a closer look

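The response to JQ1 differed between DKO-C1 and control cells, by the interaction test, for 6 of 82 nuclear members, against 8.59% of all genes, and for 0 without either JQ1 library of DKO-C1 or with ERCC scaling. Among them the log2 difference was 0.53 for NDUFB8, whose counts are uncertain because of an overlapping gene, 0.33 for COX7C, 0.32 for ATP5D, 0.31 for NDUFB5 and 0.31 for COX7B. For COX7B the libraries were at 68.7, 70.5 and 69.4 CPM in control, 69.2, 63.4 and 61.4 CPM with JQ1, 53.3, 48.7 and 51.7 CPM in DKO-C1 and 59.5 and 58.3 CPM in DKO-C1 with JQ1.

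The tested difference between sublines of 1 genotype was called for 5 of 13 mitochondrial and 13 of 82 nuclear members between CDK8KO-C1 and CDK8KO-C2 (21.1% of all genes), for 11 and 69 between CDK19KO-C1 and CDK19KO-C2 (48%), and for 6 nuclear members between DKO-C1 and DKO-C2 (9.42%). The nuclear counts for CDK8KO and DKO are no larger a share than that of all genes.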

How the results depend on the processing

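Most single-member results kept their direction and side of the threshold; DESeq2's size factors and library sizes without mitochondrial genes changed none of the 98 named values. ERCC scaling turned 26 of them, whose log2 values became: in CDK8KO MT-CO1 -0.92, MT-CO2 -1.02, MT-ATP6 -0.99, MT-CO3 -0.93, MT-ND4L -0.86, MT-ND4 -0.82 and MT-CYB -0.98; in CDK19KO UQCRC1 -1.38, ATP5A1 -1.38, SDHA -1.40 and NDUFA10 -1.49; in DKO COX6A1 -0.53, NDUFB4 -0.58, UQCRH -0.62 and UQCRC1 -0.78; in CDK8KO against CDK19KO NDUFS7 0.0864, NDUFB10 0.0975, ATP5A1 0.12 and ATP5G3 0.13; with JQ1 in control MT-CO1 -0.0911, MT-CO2 -0.0164, MT-ATP6 -0.0936, MT-CO3 -0.065, MT-ND3 -0.0198 and MT-ND4L -0.0197; and with JQ1 in DKO-C1 MT-CO2 -0.0155. NDUFA10 in CDK19KO-C2 alone was -0.00928, and COX6A1 in DKO with pseudogenes added was -0.87. The cause was not tested.

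Counts of called members changed as follows. With ERCC scaling they were 13 mitochondrial and 81 nuclear (CDK8KO), 82 nuclear (CDK19KO), 13 mitochondrial (DKO), 65 nuclear (CDK8KO against CDK19KO), 1 mitochondrial (JQ1 in control), 0 and 9 (JQ1 in DKO-C1), 0 nuclear (JQ1 difference), 0 and 0 (CDK8KO sublines), 6 nuclear (CDK19KO sublines) and 3 nuclear (DKO sublines). Without the filter on low counts the mitochondrial counts were 11 (CDK8KO), 7 (JQ1 in DKO-C1), 5 (JQ1 difference), 11 (CDK8KO sublines) and 9 (DKO sublines). With only the libraries compared they were 11 mitochondrial (CDK8KO), 7 (JQ1 in DKO-C1) and 1 (JQ1 difference), 11 mitochondrial and 27 nuclear (CDK8KO sublines) and 1 nuclear (DKO sublines). DESeq2's Wald test called 4 mitochondrial members in CDK8KO, 0 between the CDK8KO sublines and 5 between the CDK19KO sublines. CDK8KO-C2 alone gave 1 mitochondrial call and CDK19KO-C2 alone 6. The 17 tested nuclear members with little shared sequence gave 7, 12, 12, 12, 6, 4 and 1 calls (CDK8KO, CDK19KO, DKO, CDK8KO against CDK19KO, JQ1 in control, JQ1 in DKO-C1, JQ1 difference) and 1, 14 and 1 between sublines (CDK8KO, CDK19KO, DKO), from fewer members.

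Leaving out each library in turn, mitochondrial and nuclear counts ran from 3 to 8 and 49 to 57 (CDK8KO), 9 to 12 and 40 to 53 (CDK19KO), 6 to 9 and 51 to 60 (DKO), 12 to 13 and 33 to 49 (CDK8KO against CDK19KO), 3 to 10 and 28 to 40 (JQ1 in control), 2 to 3 and 31 to 47 (JQ1 in DKO-C1), and 0 to 1 and 0 to 17 (JQ1 difference). Between sublines they ran from 0 to 6 and 9 to 21 (CDK8KO), 5 to 11 and 61 to 70 (CDK19KO), and 0 to 2 and 2 to 11 (DKO). Between the CDK8KO sublines the 13 nuclear calls became 21 without DKO-C2 replicate b. Between the DKO sublines the 6 nuclear calls became 3 without DKO-C1 replicate 1, 11 without DKO-C2 replicate a and 2 without DKO-C2 replicate b.

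Libraries with the same replicate number deviated together no more than others (correlations from -0.17 to 0.17 over 70 pairs, against -0.19 to 0.18 over 140 other pairs). The main fit did not use the numbers. Whether libraries of the same number shared a batch that acted on only some genes was not tested. With the number as a replicate block, over the 22 numbered libraries, 8, 12 and 13 mitochondrial members were called in CDK8KO, CDK19KO and CDK8KO against CDK19KO, 6 in DKO, which was then DKO-C1 alone since DKO-C2 has no numbered library, 1 for JQ1 in DKO-C1, where 1 JQ1 library remained, and 1 for the JQ1 difference, which was also 1 over those libraries without the block. At 17700864 or more gene counts per library, NDUFV2, NDUFA4L2 and other members near 1 CPM rest on few counts.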
